A study of Homo sapiens with 2 samples.

Results

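The miRNAs described here come from a cluster of hairpins on chromosome X, in the gene CLCN5, and were taken by name from the deposited table: hsa-miR-532-5p, hsa-miR-532-3p, hsa-miR-188-5p, hsa-miR-188-3p, hsa-miR-500a-5p, hsa-miR-500a-3p, hsa-miR-362-3p, hsa-miR-501-3p, hsa-miR-660-5p and hsa-miR-502-3p. All 10 were present, out of 2218 mature miRNAs listed. The group was chosen by its place in the genome and with the QKI5 and GFP levels of these same libraries known, so its differences are given as descriptions. The cells were K562, a human erythroleukaemia line grown in suspension, given either a GFP lentivirus, as the control, or a lentivirus that overexpresses QKI5, a nuclear isoform of Quaking, which is an RNA-binding protein. There was 1 small RNA library per group, so no spread between cultures is known and no p-value for an effect of QKI5 is given. None of the sources used here gives the time after transduction, the promoter of the vectors or any selection of clones, and QKI5 mRNA or protein was not analysed here.

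A miRNA is made from a hairpin in a longer primary transcript. The enzyme Drosha cuts the hairpin out in the nucleus, Dicer cuts off its loop in the cytoplasm, and 1 of the arms, the 5p or the 3p, is usually kept by an Argonaute protein while the other is degraded. Hairpins that lie close together are often cut from the same primary transcript, yet their mature miRNAs can differ in level because each is processed and degraded at its own rate. QKI proteins bind RNA and are known for roles in splicing, RNA stability and the processing of some primary miRNAs. CLCN5 encodes the chloride/proton exchanger ClC-5, known from the kidney, where its loss causes Dent disease.

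In GENCODE release 29 on GRCh38 the cluster holds 8 hairpins on the plus strand of chromosome X, from 50003148 to 50014683, a span of 11536 bases within CLCN5 (49922615 to 50099235). The order is MIR532, MIR188, MIR500A, MIR362, MIR501, MIR500B, MIR660 and MIR502. Each hairpin lies in an intron of all 3 annotated CLCN5 transcripts that span it, and none touches an exon of that gene. MIR532 and MIR188 stand 264 bases apart at the start of the cluster, followed by a gap of 4842 bases to MIR500A. The deposited table carries no positions, and the authors' build was hg19.

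The mature sequences below, from RefSeq on GRCh38.p14, are shown because several cluster members are near copies of each other, which bears on how reads are told apart. RefSeq entries matched 9 of the 10 members. Bases 2 to 8, the seed that pairs with target mRNAs, are in capitals.
miR-500a-3p: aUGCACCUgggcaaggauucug
miR-501-3p: aAUGCACCcgggcaaggauucu
miR-502-3p: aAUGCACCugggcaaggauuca
miR-362-3p: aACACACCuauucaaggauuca
miR-500a-5p: uAAUCCUUgcuaccugggugaga
miR-188-5p: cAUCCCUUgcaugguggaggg
miR-188-3p: cUCCCACAugcaggguuugca
miR-532-5p: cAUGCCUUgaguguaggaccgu
miR-532-3p: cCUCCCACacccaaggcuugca

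Only miR-501-3p and miR-502-3p share a seed among these 9 sequences. miR-500a-3p and miR-502-3p have different seeds because miR-500a-3p starts 1 base later, but they share a run of 20 bases (augcaccugggcaaggauuc) and differ only at their ends. Of the 22 bases of miR-502-3p, 21 in a row also occur in the MIR500A hairpin. The whole of miR-500a-5p (23 bases) occurs in the MIR500B hairpin too, so a read of it fits either hairpin. Outside the cluster, miR-329-3p of chromosome 14 (aACACACCugguuaaccucuuu) has the seed of miR-362-3p. miR-329-3p was far more abundant than miR-362-3p, with 1449 RPM (GFP) and 1315 RPM (QKI5).

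Levels are in RPM, reads per 1000000 reads of the library. The GFP library rested on 23262340 reads and the QKI5 library on 6553945, a depth ratio of 3.55, and listed miRNAs took 66.3% and 59.5% of them. These totals were recovered from the RPM value of 1 read, and none of the sources used here says which reads the authors counted in them. The 10 members had between 31 and 3346 reads per library. Ratios are plain QKI5 over GFP ratios of RPM, with a 95% exact counting interval that covers counting error only. miR-451a and miR-144-3p, miRNAs typical of red cell precursors, were present at 2798 and 548 RPM with GFP and at 2187 and 293 RPM with QKI5. The hepatocyte miR-122-5p had 1 read with GFP and 0 with QKI5, where a floor of 3 reads allows up to 0.458 RPM.

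The cluster as a group made up a small part of the miRNA pool in K562 cells and a larger part in the QKI5 library. Its 10 members summed to 356 RPM with GFP and 549 RPM with QKI5, a ratio of 1.54 (95% counting interval 1.48 to 1.60). This was 0.0537% of the miRNA reads with GFP and 0.0923% with QKI5. The ratio depended on miR-362-3p, the most abundant member with GFP, and was 2.08 (1.99 to 2.18) over the other 9 members. It also depended on the scaling of the libraries and was 1.04 when a trimmed mean of log2 ratios set the scale.

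**Figure D1:**
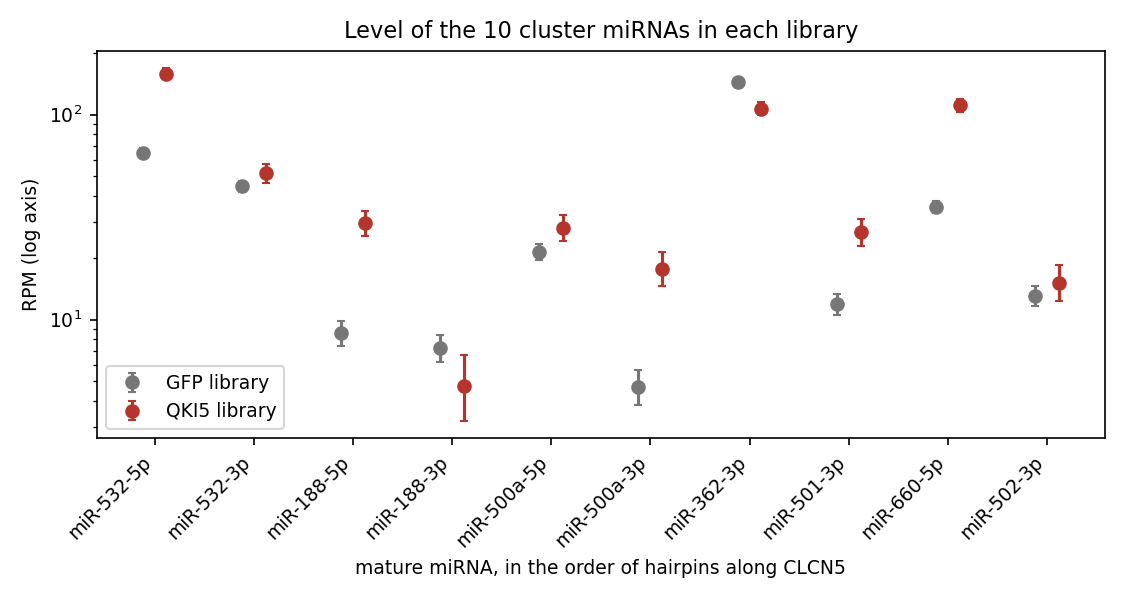
Level of each of the 10 cluster miRNAs in the GFP library (grey) and the QKI5 library (red), in RPM on a log axis, with 95% Poisson intervals for counting error; 1 library per group. miR-660-5p, miR-188-5p and miR-500a-3p stand well apart between the libraries, miR-502-3p and miR-532-3p lie close together, and miR-362-3p is lower with QKI5.

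With QKI5, 5 of the 10 members were higher by 2-fold or more and 0 were lower by as much, by a log2 ratio on RPM plus a pseudocount of 0.153 RPM. All 10 were among the 400 most abundant miRNAs, where 20.8% passed 2-fold upward and 7.25% passed it downward. At 3-fold 3 members were higher, against 6.75% of the 400, and at 1.5-fold 1 was lower, against 17.5%. Only 3 members were among the 200 most abundant miRNAs, and 2 of these were higher by 2-fold, against 15.0% of the 200. The 5 were miR-500a-3p, miR-188-5p, miR-660-5p, miR-532-5p and miR-501-3p. For 4 of them, all but miR-501-3p, the counting interval lay wholly above 2. The share of the 400 with such an interval was not computed. The median log2 ratio was 0.77 over the members and 0.21 over the 400. Outside the 10, miR-362-5p and miR-660-3p of the same cluster were also among the 400, with log2 ratios of 0.18 and 0.57. Among the 400, higher ratios made up 74.1% of the 2-fold calls as deposited, 54.5% under quantile normalization and 24.4% under the trimmed mean over all miRNAs with a read in both libraries. That trimmed mean moved the median of the 400 to -0.36 and the median of the members to 0.20, so the members stood above the 400 by a like amount, as a common factor must leave it.

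miR-532, the first hairpin of the cluster, gave its most abundant miRNA in the QKI5 library. miR-532-5p, studied in gastric cancer as a repressor of RUNX3, was at 65.2 RPM with GFP and 158 RPM with QKI5, a ratio of 2.42 (2.24 to 2.62). Its log2 ratio of 1.28 was 0.99 and 0.70 under the trimmed means over the 400 and over all miRNAs, below 2-fold. miR-532-3p, from the other arm, was at 44.8 RPM with GFP and 51.7 RPM with QKI5, a ratio of 1.16 (1.02 to 1.31). The sign of that small difference turned under the trimmed means and with a GC trend removed (log2 ratio 0.21 as deposited, -0.36 under the trimmed mean over all).

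The arms of miR-188 had ratios on opposite sides of 1, though that of the 3p arm rested on few reads. miR-188-5p, known from bone marrow stromal cells as a factor in the choice between bone and fat fates, was at 8.60 RPM with GFP and 29.4 RPM with QKI5, a ratio of 3.43 (2.80 to 4.20). miR-188-3p was at 7.26 RPM with GFP and 4.73 RPM with QKI5, 1.54-fold lower (1.04 to 2.33), on 169 and 31 reads. It was the member with the fewest reads in the QKI5 library, and its interval nearly reached 1. The binomial test of the reads, described under the processing, did not call miR-188-3p. The log2 ratio of miR-188-5p lay between 1.19 and 1.91 under every scaling, pseudocount and GC setting compared, and that of miR-188-3p between -1.15 and -0.45.

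For miR-500a it was the 3p arm that was higher. miR-500a-3p was at 4.69 RPM with GFP and 17.7 RPM with QKI5, a ratio of 3.78 (2.88 to 4.95), the highest of the 10 members. miR-500a-5p was at 21.4 RPM with GFP and 27.9 RPM with QKI5, a ratio of 1.31 (1.10 to 1.55), and its log2 ratio of 0.38 turned to -0.038 under quantile normalization and to -0.18 under the trimmed mean over all miRNAs. The 5p arm remained the more abundant arm in both libraries.

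miR-501-3p and miR-502-3p, which share a seed, differed from each other. miR-501-3p was at 11.9 RPM with GFP and 26.7 RPM with QKI5, a ratio of 2.25 (1.85 to 2.73). miR-502-3p was at 13.1 RPM with GFP and 15.1 RPM with QKI5, a ratio of 1.16 (0.912 to 1.45), so a difference was not detectable at this depth. With GFP the intervals of the pair's levels overlapped, and with QKI5 miR-501-3p was the more abundant. The log2 ratio of miR-501-3p was below 1 under quantile normalization (0.77), under both trimmed means and with the GC trend removed (0.98).

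These near-identical 3p miRNAs thus had ratios from 1.16 (miR-502-3p) to 3.78 (miR-500a-3p), with intervals that do not overlap. None of the sources used here says how reads that end inside the shared 20 bases were assigned, and the part of that step in the spread was not tested. Summed, miR-500a-3p, miR-501-3p and miR-502-3p were at 29.6 RPM with GFP and 59.5 RPM with QKI5, a ratio of 2.01 (1.77 to 2.28). The split between them plays no part in this sum. Shared reads that were dropped, or counted under more than 1 entry, would still bear on it. With this sum counted as 1 entry, 4 of 8 entries were at least 2-fold higher. The summed entry only just passed, with a log2 ratio of 1.003 and an interval that holds 2.

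miR-362-3p led the cluster in the GFP library and was lower with QKI5. It was at 144 RPM with GFP and 107 RPM with QKI5, 1.35-fold lower (1.24 to 1.46). With miR-188-3p it was 1 of 2 members below a ratio of 1. miR-362-3p also had the lowest GC content of the 9 members with a sequence, 36.4%, against 47.8% to 63.6% for the others. Across the 358 of the 400 most abundant miRNAs with a sequence, the log2 ratio was higher by 0.27 per 10 percentage points of GC. With that linear trend removed the log2 ratio of miR-362-3p moved from -0.43 to -0.11. Other scalings moved it the other way, to -0.54 without the 10 most abundant miRNAs, -0.68 under quantile normalization, and -0.71 and -0.999 under the trimmed means over the 400 and over all. It was below 0 in every scaling, pseudocount and GC setting compared.

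miR-660-5p, studied as a repressor of MDM2 in lung cancer, was at 35.4 RPM with GFP and 111 RPM with QKI5, a ratio of 3.13 (2.83 to 3.46). With 823 and 726 reads it was the best counted of the members with a ratio above 3. Its rank among the 2218 listed miRNAs was 221 with GFP and 157 with QKI5. Its log2 ratio lay between 1.07 and 1.80 over the settings that gave a value.

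**Figure D2:**
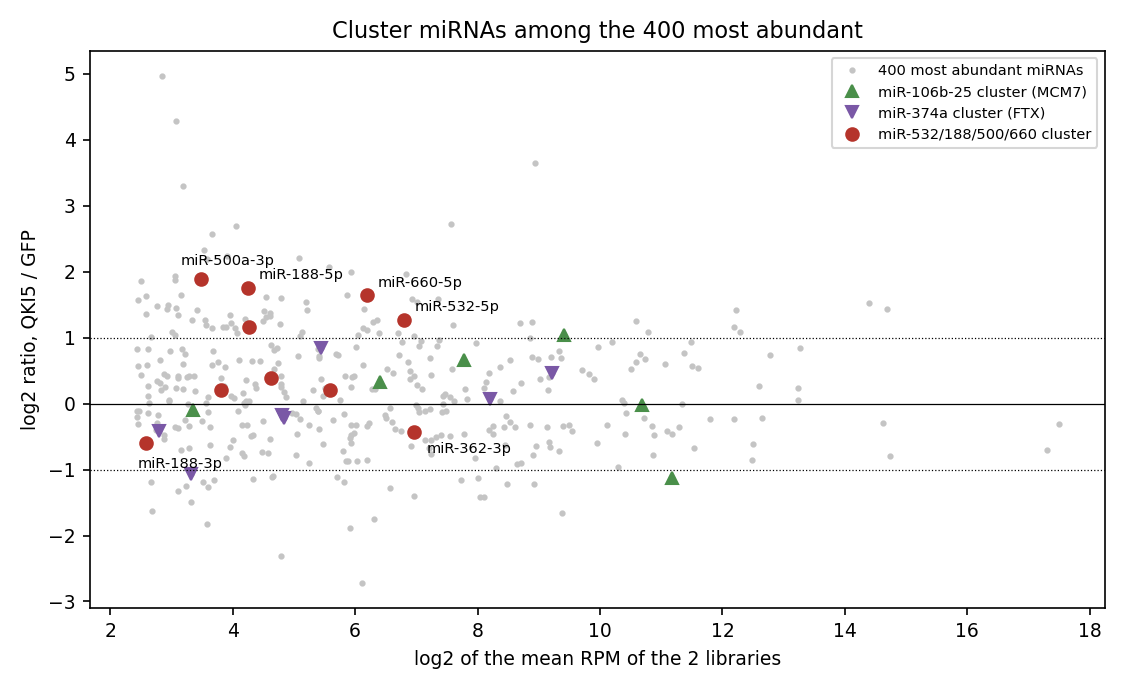
Log2 ratio of QKI5 over GFP against the log2 of the mean RPM for the 400 most abundant miRNAs (grey), the 10 cluster miRNAs (red circles), the miR-106b-25 cluster (green) and the cluster of miR-374a in FTX (purple); dotted lines mark 2-fold. The 5 cluster miRNAs above the upper line lie within the cloud of grey points, and miR-188-3p and miR-362-3p lie below 0.

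The make-up of the cluster differed between the libraries. miR-362-3p held 40.4% of the reads of the 10 members with GFP (95% Clopper-Pearson interval 39.3% to 41.5%) and 19.5% with QKI5 (18.2% to 20.8%). miR-532-5p held 18.3% with GFP (17.5% to 19.2%) and 28.8% with QKI5 (27.3% to 30.3%). miR-660-5p held 9.94% with GFP (9.30% to 10.6%) and 20.2% with QKI5 (18.9% to 21.5%). The order with GFP was thus miR-362-3p, miR-532-5p, miR-532-3p and miR-660-5p, and with QKI5 miR-532-5p, miR-660-5p, miR-362-3p and miR-532-3p. The levels of miR-660-5p and miR-362-3p with QKI5 lay within each other's counting intervals. Shares within a library do not depend on how the libraries are scaled, but the GC trend between the libraries was not removed from them.

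**Figure D3:**
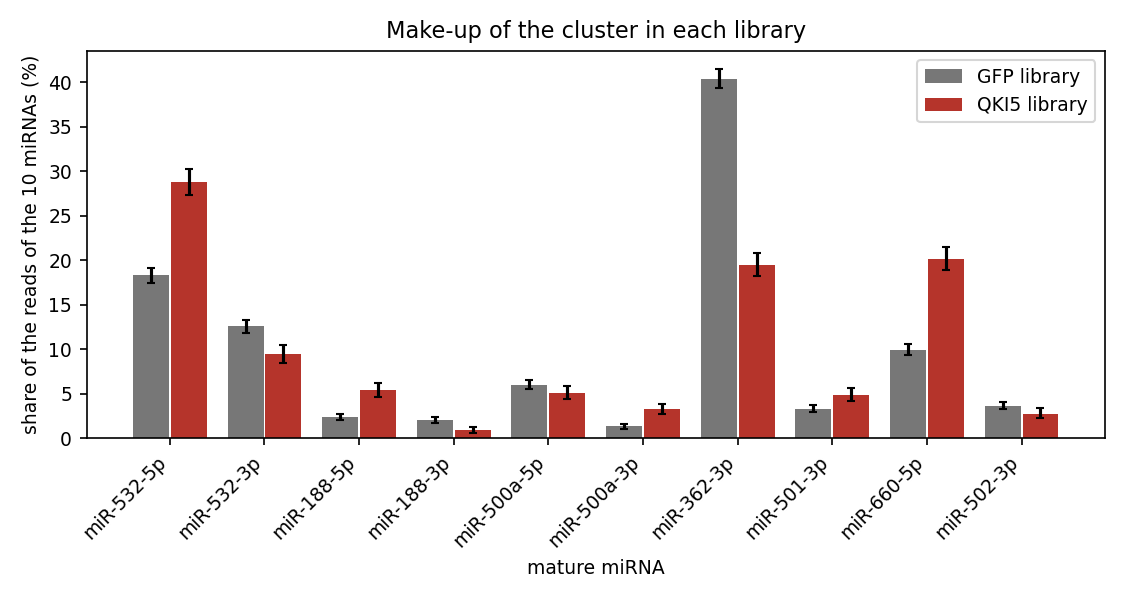
Share of the reads of the 10 cluster miRNAs held by each, in percent, in the GFP library (grey bars) and the QKI5 library (red bars), with 95% Clopper-Pearson intervals for counting error. miR-362-3p holds 40.4% with GFP and 19.5% with QKI5, while the shares of miR-532-5p and miR-660-5p are higher with QKI5.

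The table also listed 5 other arms of the cluster. miR-362-5p, studied as a repressor of the deubiquitinase CYLD, was at 26.9 RPM with GFP and 30.4 RPM with QKI5, a ratio of 1.13 (0.959 to 1.33). miR-501-5p was at 2.79 RPM with GFP and 5.04 RPM with QKI5, a ratio of 1.80 (1.15 to 2.78). miR-660-3p was at 4.38 RPM with GFP and 6.56 RPM with QKI5, a log2 ratio of 0.57 (interval of the plain ratio 1.02 to 2.16). None of these reached 2-fold. miR-500b-5p had 3 reads and miR-500b-3p 1 read with GFP and both had 0 with QKI5, too few to compare. No entry named miR-502-5p was listed.

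The share of a hairpin's reads on its 5p arm is taken within a library, so it does not depend on how the libraries are scaled. The GC trend between the libraries was not removed from it. The 5p arm held 54.2% of the miR-188 reads with GFP (49.0% to 59.4%) and 86.2% with QKI5 (80.9% to 90.4%). For miR-532 the 5p share was 59.3% with GFP (57.4% to 61.2%) and 75.3% with QKI5 (73.0% to 77.6%). For miR-660 it was 89.0% with GFP (86.8% to 90.9%) and 94.4% with QKI5 (92.5% to 95.9%). In these hairpins the balance lay further toward the 5p arm in the QKI5 library.

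In miR-500a the balance differed the other way, with a 5p share of 82.0% with GFP (78.7% to 85.0%) and 61.2% with QKI5 (55.4% to 66.8%). Since reads of miR-500a-5p fit MIR500B as well, and most of miR-500a-3p is shared with miR-502-3p, these arms may not come from 1 hairpin alone. The 3p arm was the main arm of miR-362 and miR-501 in both libraries. The 5p share of miR-362 was 15.7% with GFP (14.6% to 16.9%) and 22.1% with QKI5 (19.5% to 25.0%), and that of miR-501 was 19.1% (15.0% to 23.6%) and 15.9% (11.2% to 21.6%), whose intervals overlap.

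The change in the 5p to 3p read ratio from GFP to QKI5 was 5.26-fold for miR-188 (95% exact counting interval 3.37 to 8.37) and 2.10-fold for miR-532 (1.81 to 2.43). It was 2.09-fold for miR-660 (1.43 to 3.11) and 1.52-fold for miR-362 (1.27 to 1.83). For miR-500a the 3p to 5p ratio was 2.89-fold higher with QKI5 (2.09 to 3.99). Of the 5 cluster hairpins with both arms among the 400 most abundant miRNAs, 4 had arms whose log2 ratios stood at least 1 apart. Over all 102 such hairpins 41 did (40.2%), so arms that far apart were common in this pair of libraries.

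**Figure D4:**
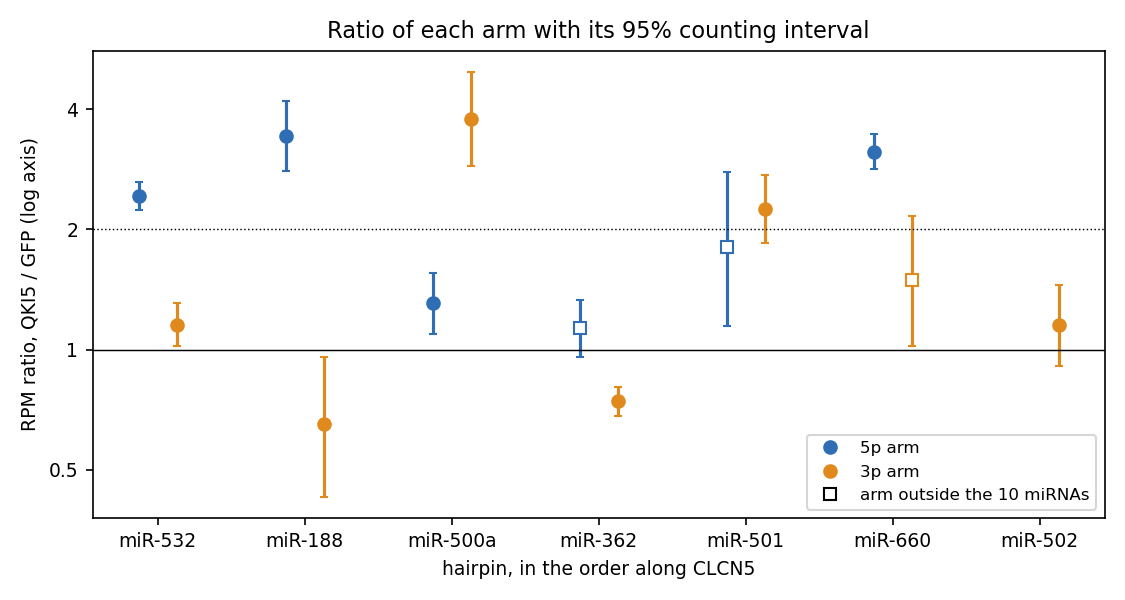
Ratio of QKI5 over GFP for the 5p arm (blue) and the 3p arm (orange) of each hairpin, on a log axis with 95% exact counting intervals; open squares are arms outside the 10 miRNAs, and the dotted line marks 2-fold. In miR-532, miR-188 and miR-660 the 5p arm lies above the 3p arm, and in miR-500a the 3p arm lies above the 5p arm.

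With both arms summed per hairpin, the ratio followed no single course along the cluster. MIR532 stood at 110.0 RPM with GFP and 209.8 RPM with QKI5, a ratio of 1.91 (1.79 to 2.04), and MIR188 beside it at a ratio of 2.15 (1.82 to 2.55). In the middle, MIR500A had a ratio of 1.75 (1.52 to 2.01) and MIR501 of 2.17 (1.81 to 2.58), whereas MIR362 between them had 0.804 (0.747 to 0.864). Most MIR362 reads were of miR-362-3p, whose log2 ratio moved from -0.43 to -0.11 with the GC trend removed, while miR-362-5p had a ratio of 1.13. The GC trend was not removed from the hairpin sums. At the far end, MIR660 stood at 39.8 RPM with GFP and 117 RPM with QKI5, a ratio of 2.95 (2.68 to 3.25), and MIR502, by its 3p arm alone, at 1.16. Since miR-500a-5p also fits MIR500B, and most of miR-502-3p occurs in MIR500A, the values of MIR500A and MIR502 may each mix hairpins. MIR362 lies 449 bases from MIR500A and 693 bases from MIR501, and its interval lay apart from theirs, while those of MIR532 and MIR188 overlapped. With 1 library per group the spread between cultures around these ratios is not known.

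**Figure D5:**
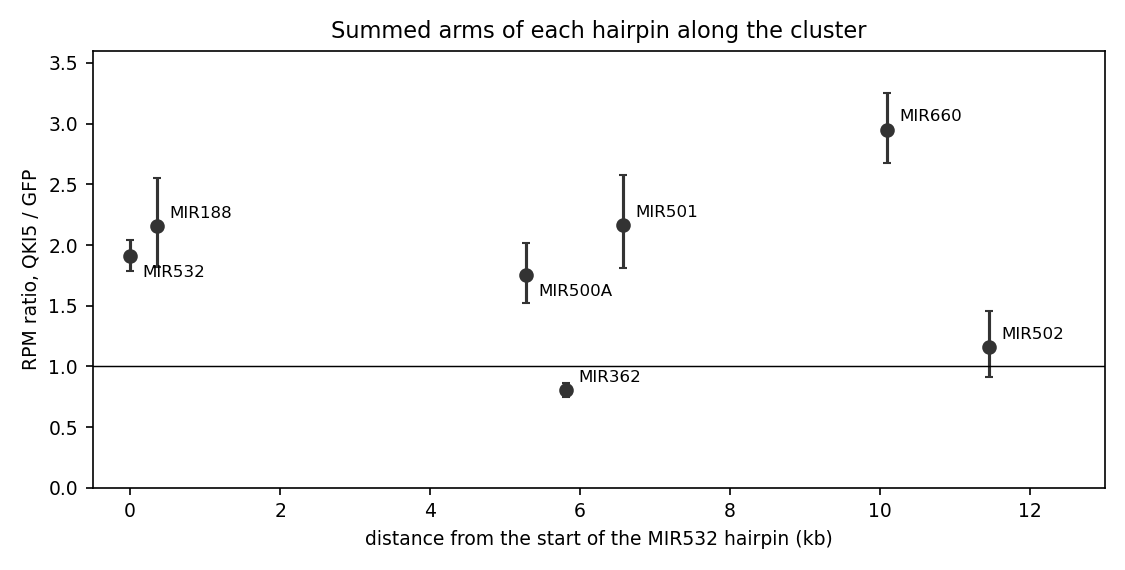
Ratio of QKI5 over GFP of the summed arms of each hairpin against the distance of its start from the start of MIR532, in kb, with 95% exact counting intervals; MIR500B, with 4 reads, is left out. MIR362 lies below 1 between MIR500A and MIR501, and MIR660 has the highest ratio. Reads of MIR500A and MIR502 may come in part from other hairpins of the cluster.

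A pair of other clusters that lie within a single host transcript were set beside this one. The miR-106b-25 cluster in MCM7 had 6 listed arms with a median log2 ratio of 0.15, of which 1 passed 2-fold upward and 1 downward. The cluster of miR-374a, miR-374b, miR-545 and miR-421 in FTX, also on chromosome X, had 7 with a median of -0.17, of which 0 passed 2-fold upward and 1 downward. The spread of log2 ratios within the cluster in CLCN5 (SD 0.91 across its 10 members) was close to that of the 400 most abundant miRNAs (0.95), against 0.75 in the MCM7 cluster and 0.61 in the FTX cluster. The MCM7 and FTX values take all listed arms, whereas that of the cluster in CLCN5 leaves out its 5 other arms. Of these, miR-362-5p and miR-660-3p, with log2 ratios of 0.18 and 0.57, were also among the 400. Members of a cluster are not replicates, and the differences between clusters were not tested.

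The miRNAs outside the cluster nearest to miR-660-5p in level and ratio, over the 2 libraries, were miR-1275, miR-4286 and miR-92b-3p. Their log2 ratios were 1.43, 1.64 and 1.27, at distances of 0.213, 0.316 and 0.411 in the plane of log2 mean level and log2 ratio. Nearest to miR-532-5p were miR-135b-5p, miR-574-3p and miR-941, with log2 ratios of 1.07, 1.02 and 1.58. With 2 libraries such likeness rests on a single ratio and level.

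QKI proteins bind RNA with the core ACUAAC or ACUAAU. Of the 7 cluster hairpins with a RefSeq sequence, 0 held either spelling on the RNA strand and 0 on the opposite strand. Among all 1560 RefSeq hairpins 24 held one on the RNA strand (1.54%) and 28 on the opposite strand. Against a share this low, 0 of 7 hairpins cannot show a difference. The introns around the hairpins, and MIR501, which had no sequence, were not searched. Binding of QKI5 was not tested.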

How the data were processed

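Small RNA libraries were made from small RNA of K562 cells and read on an Ion Proton instrument, per the labels' protocols. Bowtie 0.12.3 and hg19 are named in the submitters' processing notes. None of the sources used here gives the miRNA annotation, mismatches, treatment of multiply matching reads or strand. The values the authors deposited are RPM, although the table is named RPKM: in each column 100.0% of the values above 0 were whole multiples, within 0.1 of a read, of the value of 1 read (0.0430 RPM with GFP, 0.153 RPM with QKI5), so reads were recovered. 

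Log2 ratios used RPM plus 0.153. Counting intervals were exact (conditional binomial, Clopper-Pearson or Poisson, 95%), and cover counting error only, since no molecular identifiers separate molecules from copies. Members were counted at 2-fold among the 400 most abundant miRNAs. A model with a dispersion cannot be fitted with 1 library per group. An exact binomial test of the reads with Benjamini-Hochberg adjustment, which compares these libraries and not the conditions, called 426 of 1995 detected miRNAs (21.4%), 7 members among them. All 10 members were among the 400 most abundant miRNAs, whereas the 1995 include miRNAs with few reads, which this test can seldom call. The share called among the 400 was not computed, so the 7 members have no like share beside them. The members, lists and comparisons were chosen with earlier results of these data known. The text names all members, all other listed arms of the cluster, and the miRNAs nearest to miR-660-5p and miR-532-5p, while miR-329-3p, of the 2 listed miRNAs outside the cluster with a member's seed, was added after its level was seen, and miR-451a, miR-144-3p and miR-122-5p as cell type markers. Alternatives covered scaling, pseudocount, level filter, fold and GC content. Calculations were tested on simulated data and used scipy 1.17.1, numpy 2.4.6 and pandas 2.3.3 in Python 3.11.15.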

Additional observations from a re-analysis of the deposited data

How the results depend on the processing

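No paired analysis was possible because there was 1 library per group. The median log2 ratio of the members (0.77 as deposited) stayed above 0 in all settings run, and miR-188-5p, miR-500a-3p and miR-660-5p stayed at least 2-fold higher in all settings of scaling, pseudocount and GC content that gave them a value. Under the trimmed mean over the 1265 miRNAs with a read in both libraries, 3 members were at least 2-fold higher and 1 lower. In that setting 29 of the 400 most abundant miRNAs were higher and 90 lower. The median of the members was 0.20 and their summed ratio 1.04. Over the 400 most abundant, a choice made after seeing the data, the trimmed mean gave 3 members higher, against 49 of the 400. The median of the members was then 0.49 and their summed ratio 1.27. Quantile normalization gave a median of 0.40 and a summed ratio of 1.31. The summed ratio was 1.72 with each column divided by its own miRNA total and 1.43 with the 10 most abundant miRNAs left out of the scaling. With the GC trend removed 3 of 9 members with a sequence were at least 2-fold higher, with a median of 0.39. As deposited it was 4 of these 9, with a median of 0.38. Of the 358 miRNAs with a sequence among the 400, 63 were higher with the trend removed. Among the 200 most abundant miRNAs, which include 3 members, 2 were higher, with a median of 1.28. At 3-fold 3 were higher, and at 1.5-fold 1 was lower. Also chosen after seeing the data were the binomial test of the reads and the sum without miR-362-3p, with a ratio of 2.08. That test called 6 members higher and 1 lower, and the share it called among the 400 was not computed. Signs turned for 3 members with small ratios: the log2 ratio of miR-532-3p was -0.36 under the trimmed mean over all miRNAs, -0.073 under that over the 400 and -0.22 with the GC trend removed; that of miR-500a-5p was -0.18 under the former and -0.038 under quantile normalization; and that of miR-502-3p was -0.36, -0.072 and -0.18 under the trimmed means over all and over the 400 and under quantile normalization. The cause of these shifts was not tested. Depth leaves wide intervals for miR-188-3p and for miR-501-5p (31 and 33 reads with QKI5), and miR-500b could not be compared.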
